A study of Chlorocebus sabaeus with 3 samples.

Results

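The Wnt pathway genes described here are 44 listed ligands, receptors, secreted antagonists, and intracellular effectors, and 41 of them could be read among the 19775 genes named on the arrays. A member was read from probe sets whose only gene symbol is that gene, 1 probe set per gene with the highest mean log2 value over the tissues, and its other probe sets served as a check. WNT3 and FZD8 were represented only by probe sets that carry several symbols, and TCF7 had no named probe set; these 3 genes are not analysed here. The 41 genes were 11 ligands, 15 receptors, 9 secreted antagonists, and 6 effectors, with 99 probe sets in all. The rule uses no measured difference, but the list was written with earlier results of these data known. It holds WIF1, a gene that the study itself picked from these arrays.

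Wnt ligands are secreted, lipid-modified glycoproteins that bind Frizzled receptors, alone or with the co-receptors LRP5 and LRP6. In the canonical branch this stops the breakdown of beta-catenin, which then acts with TCF and LEF proteins on target genes, while other branches act on cell polarity and movement without beta-catenin. Secreted antagonists either bind the ligands (WIF1 and the SFRP family) or the co-receptors (DKK1 and DKK2), and LGR receptors, with R-spondins as ligands, raise the amount of Frizzled at the cell surface. In the ocular surface, the pathway is known for its part in the choice between corneal and skin-like epithelium in the mouse and in the growth of limbal epithelial progenitors in human cell culture.

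Total RNA of 3 eye surface tissues of the vervet monkey (Chlorocebus sabaeus), namely limbus, cornea, and conjunctiva, was hybridized to human Affymetrix expression arrays, 1 array per tissue and 3 in all. The limbus was the narrow rim around the cornea, the cornea was its trephined centre, and the conjunctiva was taken with the Tenon tissue below it; the limbus and the cornea included part of the stroma beneath the epithelium. No treatment or genetic change is described for any group. The labels give no age and do not say how many animals stand behind an array. The study itself gives an age range for its animals and states that the tissue types were taken from the same eye. The values are intensities on a linear scale, normalized by the authors by RMA (robust multi-array average) together with fixed reference arrays. There was no replicate array, so none of the differences has an error or a p-value. "Higher" and "lower" describe these 3 arrays, and the human probes mean that levels of different genes are not compared.

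The medians of the arrays were close, at 49.0 in limbus, 48.8 in cornea, and 50.7 in conjunctiva, and a value of 100 lay near the 70th percentile of each array (69.7 in limbus, 70.2 in cornea, and 69.6 in conjunctiva). Members that never reached 100 are given as low values. Known markers followed the labels. The corneal keratin KRT12 was at 2633 in limbus, 8068 in cornea, and 54.3 in conjunctiva, and the goblet cell mucin MUC5AC was at 127 in limbus, 102 in cornea, and 1618 in conjunctiva. As these are whole tissues, fewer cells of a type and less RNA per cell cannot be told apart in any value below.

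Wnt pathway members differed between the tissues by more than the typical gene. The list was written with earlier results of these data known, so the comparison describes the list and is not a test of it. The median log2 difference between the highest and the lowest tissue was 0.84 over the 41 members, compared with 0.47 over all genes, and 18 members (43.9%) spanned at least 2-fold, compared with 13.9% of all genes. The secreted antagonists had the widest spread, with a median of 1.28. A value of 100 in at least 1 tissue was reached by 29 members, that is 70.7% compared with 55.6% of all genes. The spread was not compared with that of all genes reaching 100, so the part of intensity in it was not tested. The limbus was the highest tissue for 5 members, the cornea for 13, and the conjunctiva for 23 (12.2%, 31.7%, and 56.1%, compared with 24.9%, 38.4%, and 36.7% of all genes). The cornea was the lowest tissue for 21 (51.2% compared with 33.2% of all genes). The order of the highest tissues depended on the scaling. The hybridization controls are foreign transcripts added to each hybridization in fixed amounts (geometric mean, after the authors' normalization, 735 in limbus, 1128 in cornea, and 902 in conjunctiva). After division by them, the limbus was highest for 21 members, the cornea for 4, and the conjunctiva for 16. The cornea was then the lowest tissue for 32. That scaling raised the limbus and lowered the cornea over all genes as well. The median log2 difference of all genes became 0.57 for limbus minus cornea and -0.32 for cornea minus conjunctiva. The highest and lowest tissues of all genes were not counted under it, so these counts have no background share.

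**Figure D1:**
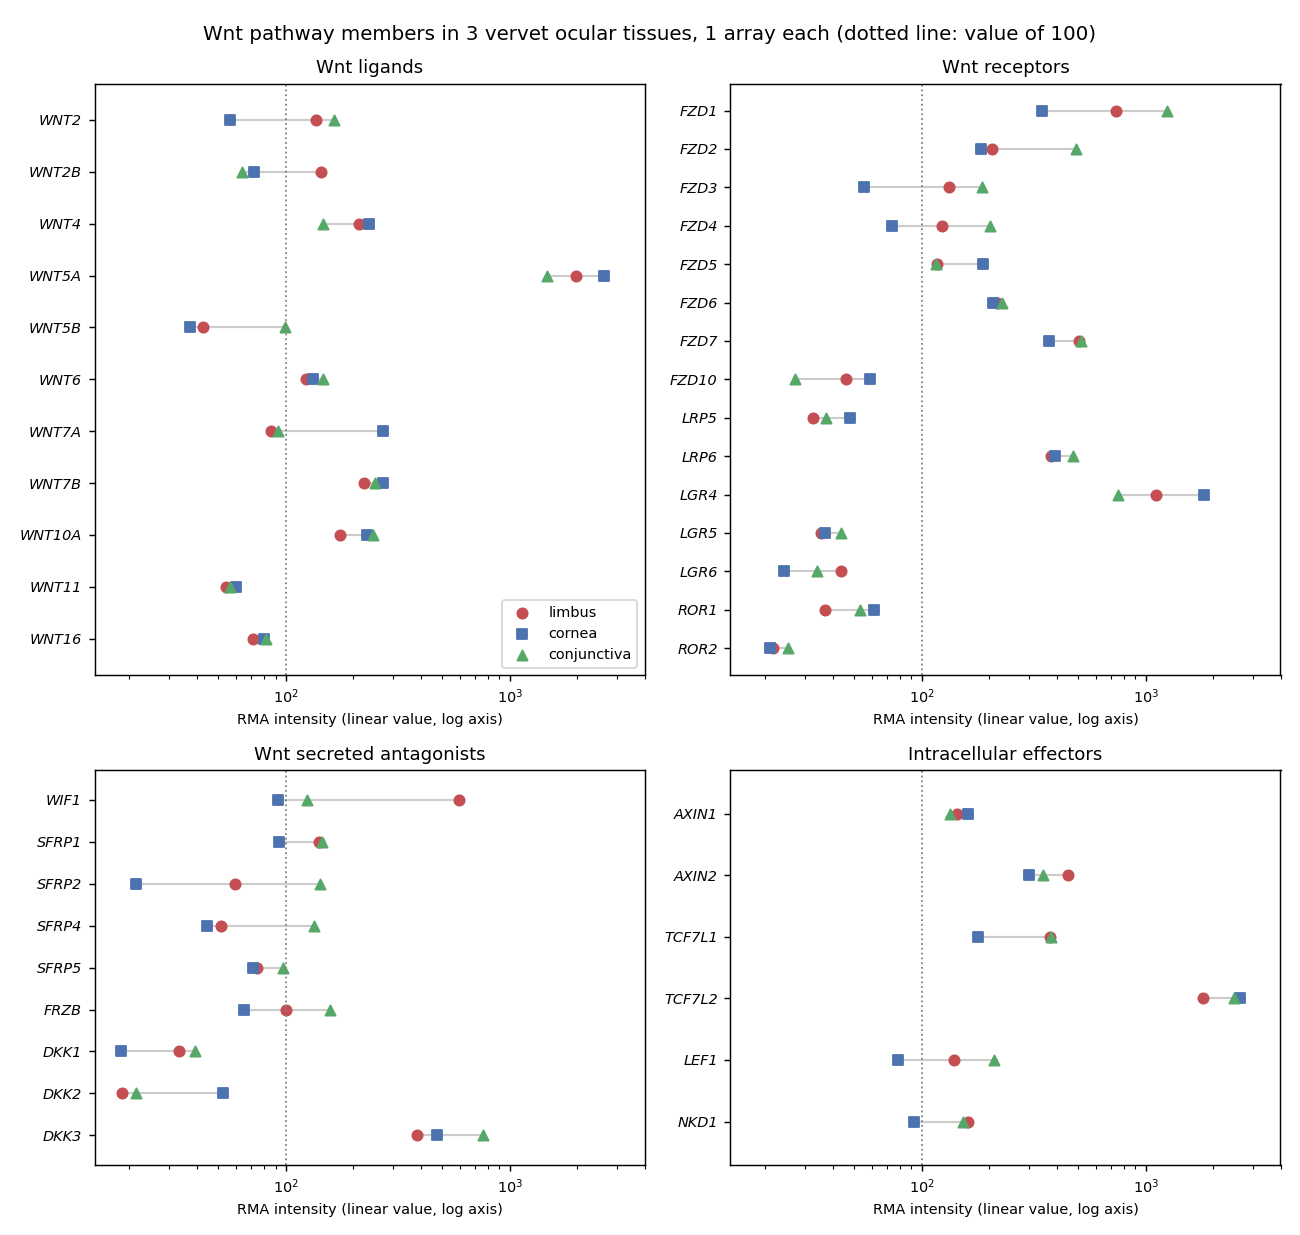
Linear RMA intensity (log axis) of the 41 Wnt pathway members with circles for limbus, squares for cornea, and triangles for conjunctiva, from 1 array each, in 4 panels by role. WIF1 is at 593 in limbus, and 7 of the 9 secreted antagonists are lowest in the cornea (8 when the arrays are scaled by hybridization controls).

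By the 2-fold rule of the study, in which a transcript counts for a tissue when it is at least 2-fold higher there than in each of the others, 1 member counted for the limbus, 2 for the cornea, and 4 for the conjunctiva. The limbus gene was WIF1 (0.475% of all genes counted for the limbus). The cornea genes were WNT7A and DKK2 (1.89% of all genes), and the conjunctiva genes were WNT5B, FZD2, SFRP2, and SFRP4 (1.68% of all genes). The conjunctiva count rests on the setting, with 1 gene left with a pseudocount of 32 (FZD2), 1 under the hybridization control scaling (SFRP4), 1 by the median over probe sets (SFRP4), and 0 at 3-fold. Between the cornea and the conjunctiva, 12 of 41 (29.3%) were at least 2-fold lower in the cornea, compared with 5.68% of all genes, and 4 were at least 2-fold higher, compared with 5.31%. Among members reaching 100 the share lower in the cornea was 34.5%, compared with 8.24% of all such genes.

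Wnt inhibitory factor 1 (WIF1), which binds Wnt ligands outside the cell, was the member that set the limbus apart. Its only named probe set was at 593 in limbus, 91.9 in cornea, and 124 in conjunctiva. The log2 difference was 2.69 for limbus minus cornea and 2.25 for limbus minus conjunctiva. Of all 19775 genes, 9 had a larger excess in the limbus over the next tissue. It passed 3-fold as well as 2-fold, and the limbus was higher with the pseudocount, quantile normalization, and the hybridization control scaling. The pseudocount cannot reverse a direction and the hybridization control scaling raises the limbus for every gene, so neither could have turned this order. The gene has no other named probe set; the study also measured WIF1 by quantitative RT-PCR, which is not analysed here.

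WNT2B, a ligand that in the chick keeps cells of the retinal margin undifferentiated, had the second limbus pattern. It was at 144 in limbus, 72.3 in cornea, and 63.5 in conjunctiva, and at a log2 difference of 0.99 over the cornea it missed the 2-fold rule narrowly. The other 3 WNT2B probe sets were all at 53.1 or lower, with 1 highest in the limbus by a small margin and 2 highest in the cornea, and when all 4 were combined by their median, the limbus minus conjunctiva difference was -0.04 in place of 1.18. AXIN2, a target gene of beta-catenin that feeds back on the pathway, was at 450 in limbus, 302 in cornea, and 349 in conjunctiva. This is less than 2-fold, and its second probe set reaching 100 was highest in the conjunctiva, at 87.5 (limbus), 99.4 (cornea), and 137 (conjunctiva). NKD1, a feedback inhibitor that binds Dishevelled, was at 161 in limbus, 92.8 in cornea, and 153 in conjunctiva, and all 3 of its probe sets were highest in the limbus.

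Of the 5 melanocyte genes measured, 4 were also highest in the limbus (24.9% of all genes), and KIT was highest in the cornea. TYRP1 was at 290 in limbus, 11.7 in cornea, and 21.6 in conjunctiva. By the 2-fold rule, 2 of the 5 counted for the limbus, compared with 0.475% of all genes. The sum over the list was 3267 (limbus), 6429 (cornea), and 2258 (conjunctiva). Most of that sum was KIT, at 1791 in limbus, 6078 in cornea, and 1607 in conjunctiva. The basal keratin KRT14, at 4580 (limbus), 53.1 (cornea), and 5521 (conjunctiva), was low in the cornea alone. KRT15 had the same pattern, at 3159 in limbus, 182 in cornea, and 3520 in conjunctiva. KRT5 ran the other way, at 6129 (limbus), 7264 (cornea), and 3293 (conjunctiva). Of the 5 epithelium genes measured, 2 were at least 2-fold lower in the cornea than in the conjunctiva and 1 was higher. The part of melanocytes in the limbus pattern of WIF1 was not tested.

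**Figure D2:**
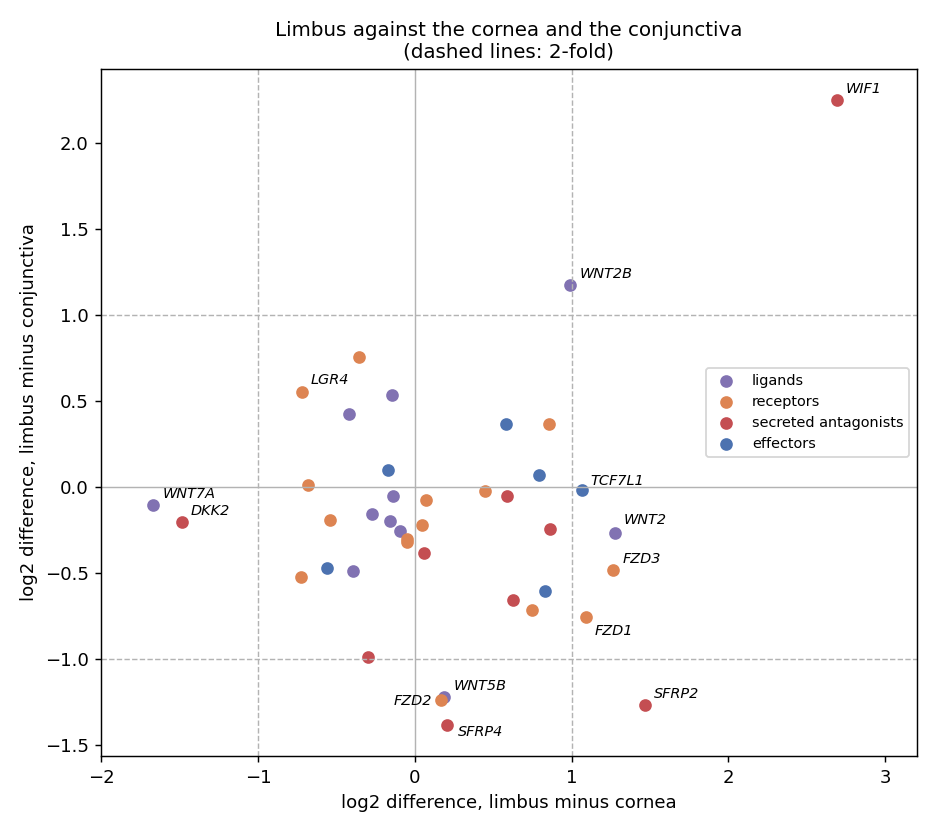
Each point is a member, with the log2 difference limbus minus cornea on the horizontal axis and limbus minus conjunctiva on the vertical axis, coloured by role; dashed lines mark 2-fold. WIF1 lies alone in the upper right corner, at 2.69 and 2.25, and WNT7A and DKK2 lie to the left.

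Among the ligands, the cornea held the highest values of WNT5A and WNT7A, although for WNT5A the limbus passed the cornea once the arrays were scaled by hybridization controls (0.20 for limbus minus cornea, in place of -0.42). WNT5A, the prototype of ligands that act without beta-catenin, was at 1967 in limbus, 2633 in cornea, and 1468 in conjunctiva. These values lay at or above the 97.9th percentile of each array. The second WNT5A probe set gave the same order and a wider range, at 223 in limbus, 398 in cornea, and 90.7 in conjunctiva. WNT7A, a ligand described in human corneal epithelium as acting through FZD5 on the eye field regulator PAX6, was at 85.9 (limbus), 273 (cornea), and 92.5 (conjunctiva). It was thus highest in the cornea, with a log2 difference of -1.67 for limbus minus cornea and 1.56 for cornea minus conjunctiva. WNT7A has 1 named probe set.

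Apart from WNT4, which was also highest in the cornea on the deposited scale, the other ligands pointed elsewhere or hardly differed. WNT2, a canonical ligand, was at 136 in limbus, 56.3 in cornea, and 164 in conjunctiva, so that the cornea was the low tissue. WNT4, which acts in kidney and gonad development, was at 212 in limbus, 234 in cornea, and 146 in conjunctiva, and its other probe set reaching 100 was highest in the cornea as well; under the hybridization control scaling the limbus was above the cornea by 0.47. WNT5B, the close relative of WNT5A, was at 42.6 (limbus), 37.4 (cornea), and 99.6 (conjunctiva), highest in the conjunctiva but never at 100. Its other probe sets had the same highest tissue with smaller differences, at 41.3 in limbus, 31.5 in cornea, and 44.4 in conjunctiva on the brighter of them. The epithelial ligands WNT6, WNT7B, and WNT10A stayed within 1.5-fold. WNT6 was at 123 (limbus), 132 (cornea), and 147 (conjunctiva). WNT7B was at 224 in limbus, 271 in cornea, and 250 in conjunctiva. WNT10A, whose loss in humans affects teeth and hair, was at 175 (limbus), 230 (cornea), and 245 (conjunctiva). WNT6 and WNT10A are direct neighbours in the vervet annotation, and both were lowest in the limbus on the deposited scale but not under the hybridization control scaling. WNT11 and WNT16 were low, between 54.2 and 81.9 in all tissues. The median log2 difference of the 11 ligands was -0.15 for limbus minus cornea, -0.15 for limbus minus conjunctiva, and 0.09 for cornea minus conjunctiva, compared with -0.05, -0.04, and 0.01 over all genes. All of these medians are small, and each of the 3 ligand medians changed sign when the arrays were scaled by their hybridization controls.

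Among the 8 Frizzled receptors measured, 4 were at least 2-fold lower in the cornea than in the conjunctiva (5.68% of all genes). Another 1 was at least 2-fold higher (5.31% of all genes), and 3 did not pass. The 4 depend on the probe sets chosen. By the median over probe sets, FZD2 (-0.84) and FZD3 (-0.67) no longer passed, FZD1 and FZD4 did, and FZD7 was added. FZD1 was at 735 in limbus, 345 in cornea, and 1242 in conjunctiva, with a log2 difference of 1.09 for limbus minus cornea and -1.85 for cornea minus conjunctiva. All 3 FZD1 probe sets gave this order. FZD2, of the same subfamily, was at 207 in limbus, 184 in cornea, and 487 in conjunctiva, with the limbus next to the cornea, and a log2 difference of -1.24 for limbus minus conjunctiva; its second probe set, never at 100, was also highest in the conjunctiva. FZD7, the third of the subfamily, was at 506 (limbus), 371 (cornea), and 514 (conjunctiva), and on its second probe set at 185 in limbus, 72.1 in cornea, and 234 in conjunctiva.

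FZD3, known for its part in axon growth and cell polarity, was at 133 in limbus, 55.4 in cornea, and 186 in conjunctiva. Of its other probe sets, the 1 that reached 100 had the same order at 104 (limbus), 74.4 (cornea), and 136 (conjunctiva). FZD4, the receptor through which norrin shapes retinal vessels, was at 123 in limbus, 73.4 in cornea, and 202 in conjunctiva. In FZD1, FZD3, and FZD4 the limbus thus lay between the cornea and the conjunctiva. FZD6, also a polarity receptor, was close to level at 218 (limbus), 207 (cornea), and 229 (conjunctiva). FZD5 ran the other way, highest in the cornea at 117 in limbus, 188 in cornea, and 116 in conjunctiva. Its second probe set was at 81.1 (limbus), 81.2 (cornea), and 41.6 (conjunctiva), which places the limbus with the cornea. FZD10 was low, at 45.9 in limbus, 58.7 in cornea, and 27.1 in conjunctiva, highest in the cornea and at least 2-fold lower in the conjunctiva than there, though under the hybridization control scaling the limbus was above the cornea.

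LGR4, a receptor of R-spondins in many epithelia, had a corneal pattern. It was at 1107 in limbus, 1826 in cornea, and 753 in conjunctiva, a log2 difference of 1.28 for cornea minus conjunctiva. Both other LGR4 probe sets were low and also highest in the cornea, by small margins, at 68.4 (limbus), 81.1 (cornea), and 65.0 (conjunctiva) and at 29.7 in limbus, 37.6 in cornea, and 35.5 in conjunctiva. LGR5, the marker of intestinal stem cells, was low everywhere, at 35.5 (limbus), 36.8 (cornea), and 43.8 (conjunctiva), and LGR6 was at 43.8 in limbus, 24.3 in cornea, and 33.9 in conjunctiva. No limbus excess of LGR5 was detectable at these intensities. The co-receptor LRP6 was at 379 (limbus), 392 (cornea), and 472 (conjunctiva), though its other probe sets, both reaching 100, were highest in the limbus, at 153 in limbus, 65.9 in cornea, and 86.5 in conjunctiva and at 117 (limbus), 65.2 (cornea), and 83.0 (conjunctiva). LRP5 was never above 47.6. ROR1 and ROR2, tyrosine kinase receptors of WNT5A, were never above 61.5.

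The median log2 difference of the 15 receptors was 0.04 for limbus minus cornea, -0.22 for limbus minus conjunctiva, and -0.27 for cornea minus conjunctiva. The limbus minus conjunctiva median turned positive, at 0.07, under the scaling by hybridization controls. The cornea minus conjunctiva median stayed negative under quantile normalization and the median over probe sets. It was negative with the pseudocount and the hybridization control scaling as well, but neither of these could have turned it. On the chosen probe sets, FZD1, FZD2, FZD3, and FZD4 were all of the receptors at least 2-fold lower in the cornea than in the conjunctiva. FZD10 and LGR4 were at least 2-fold higher.

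**Figure D3:**
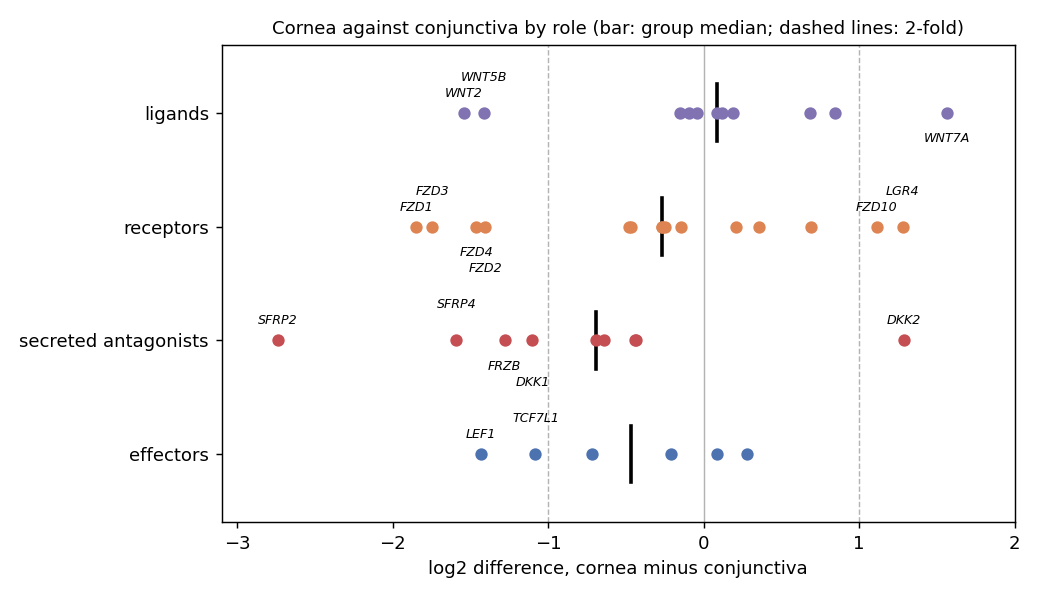
Log2 difference cornea minus conjunctiva of each member (points) in rows by role, with the median of each row as a bar and 2-fold as dashed lines. The secreted antagonists have the lowest median, -0.69, with SFRP2 farthest to the left at -2.74 and DKK2 alone to the right.

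Apart from WIF1 and DKK2, the secreted antagonists were highest in the conjunctiva on the chosen probe sets. SFRP1 and DKK1, however, turned highest in the limbus under the hybridization control scaling. SFRP2, which carries a Frizzled-like domain, was at 59.2 in limbus, 21.4 in cornea, and 143 in conjunctiva. Its log2 difference was 1.47 for limbus minus cornea and -2.74 for cornea minus conjunctiva, but its second probe set was low and nearly level, at 44.4 in limbus, 37.4 in cornea, and 43.2 in conjunctiva. SFRP4 was at 51.4 (limbus), 44.5 (cornea), and 134 (conjunctiva), and its second probe set was clearer still, at 40.5 in limbus, 28.6 in cornea, and 251 in conjunctiva. FRZB, a further member of the family, was at 99.9 (limbus), 64.9 (cornea), and 157 (conjunctiva), and on its next brightest probe set at 85.2 in limbus, 38.9 in cornea, and 138 in conjunctiva. SFRP1, of the same family, was at 141 (limbus), 93.5 (cornea), and 146 (conjunctiva), level between the limbus and the conjunctiva. SFRP5 was low, at 74.2 in limbus, 71.2 in cornea, and 96.7 in conjunctiva.

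The Dickkopf genes did not share 1 pattern. DKK2, whose loss in the mouse lets the corneal epithelium take on features of skin, was highest in the cornea, at 18.6 in limbus, 52.3 in cornea, and 21.4 in conjunctiva. It counted for the cornea, but all of its values were low, its second probe set was at 12.9 (limbus), 12.1 (cornea), and 11.4 (conjunctiva), and with a pseudocount of 32 it no longer counted. DKK1, which binds LRP5 and LRP6, was low too, at 33.4 in limbus, 18.4 in cornea, and 39.5 in conjunctiva. DKK3, a divergent family member, was at 384 (limbus), 472 (cornea), and 761 (conjunctiva), with a log2 difference of -0.99 for limbus minus conjunctiva, just under 2-fold. The second DKK3 probe set reaching 100 was highest in the limbus, at 107 in limbus, 67.3 in cornea, and 89.5 in conjunctiva. A further one, never at 100, was highest in the cornea, at 24.7 (limbus), 84.0 (cornea), and 42.2 (conjunctiva). By the median over probe sets, the DKK3 difference for cornea minus conjunctiva was 0.35 in place of -0.69.

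Over the 9 antagonists the median log2 difference was 0.59 for limbus minus cornea, -0.38 for limbus minus conjunctiva, and -0.69 for cornea minus conjunctiva. The cornea was the lowest tissue for 7 of them and the conjunctiva the highest for 7. Under the hybridization control scaling these were 8 and 5, with no share of all genes counted there. These 3 medians kept their sign with the pseudocount, quantile normalization, the hybridization control scaling, and the median over probe sets. Under the hybridization control scaling the limbus minus conjunctiva median shrank to -0.09. That scaling could only widen the limbus minus cornea and cornea minus conjunctiva medians, and the pseudocount could change no sign.

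Of the effectors, TCF7L1 and LEF1 were low in the cornea. TCF7L1, mainly a repressor of target genes, was at 372 in limbus, 178 in cornea, and 377 in conjunctiva. It lay just past 2-fold, with a log2 difference of 1.06 for limbus minus cornea and -1.08 for cornea minus conjunctiva, on its only named probe set. LEF1, which activates targets with beta-catenin, was at 139 (limbus), 78.1 (cornea), and 211 (conjunctiva), while its other probe sets were at 74.1 or lower. TCF7L2, a further partner of beta-catenin, stayed within 1.5-fold at 1798 in limbus, 2646 in cornea, and 2491 in conjunctiva. All 4 TCF7L2 probe sets reaching 100 were highest in the cornea, but on the chosen one the conjunctiva was higher after quantile normalization and both other tissues were higher under the hybridization control scaling. AXIN1, the scaffold of the complex that breaks down beta-catenin, was at 143 (limbus), 161 (cornea), and 133 (conjunctiva). The median log2 difference of the 6 effectors was 0.68 for limbus minus cornea, but by the median over probe sets it was -0.07, so this group shift rests on the probe sets chosen.

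Between the limbus and the cornea, 6 members passed 2-fold on the limbus side (WNT2, FZD1, FZD3, WIF1, SFRP2, and TCF7L1, 14.6% compared with 4.06% of all genes) and 2 on the cornea side (WNT7A and DKK2, compared with 2.51%). All of the 6 but WIF1 were also at least 2-fold lower in the cornea than in the conjunctiva. Between the limbus and the conjunctiva, 2 were higher in the limbus (WNT2B and WIF1, compared with 2.62% of all genes) and 4 lower (WNT5B, FZD2, SFRP2, and SFRP4, compared with 2.31%). The split of calls depends on how the arrays are scaled. When each array was divided by its hybridization controls, the median of all genes moved to 0.57 for limbus minus cornea, 0.26 for limbus minus conjunctiva, and -0.32 for cornea minus conjunctiva. The members then numbered 16 higher and 1 lower in limbus than in cornea (16.7% and 0.582% of all genes), 3 higher and 1 lower in the limbus than in the conjunctiva (5.87% and 0.996%), and 1 higher and 14 lower in the cornea than in the conjunctiva (2.92% and 10.4%). All 12 members first found lower in the cornea than in the conjunctiva were bound to be among the 14. Dividing each array by a constant lowered every cornea minus conjunctiva difference equally, so their retention shows nothing about them.

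Markers of several cell types were also lower in the cornea than in the conjunctiva. The fibroblast, leukocyte, and goblet cell lists had their lowest sum in the limbus, however, and not in the cornea. Of 6 vascular endothelial genes, 4 were at least 2-fold lower in the cornea than in the conjunctiva, with PECAM1 at 462 in limbus, 45.9 in cornea, and 675 in conjunctiva, and the list summed to 1370 in limbus, 401 in cornea, and 2089 in conjunctiva. Of 6 smooth muscle and pericyte genes, 4 were lower, and the list summed to 1378 (limbus), 525 (cornea), and 3587 (conjunctiva). Of 6 fibroblast genes, 3 were lower, with COL3A1 at 519 in limbus, 46.3 in cornea, and 2105 in conjunctiva, and the list summed to 11752 (limbus), 13872 (cornea), and 21411 (conjunctiva). Of the fibroblast genes, DCN ran the other way at 5084 in limbus, 9335 in cornea, and 6415 in conjunctiva. Of 6 leukocyte genes, 3 were lower, and the list summed to 3656 in limbus, 4254 in cornea, and 9502 in conjunctiva. Most of the leukocyte sum was LYZ, at 3166 in limbus, 3907 in cornea, and 8426 in conjunctiva. Of 5 goblet cell genes, 4 were lower, and the list summed to 1193 in limbus, 1659 in cornea, and 8311 in conjunctiva. None of the markers was at 0, but linear RMA intensities are always above 0, so this does not show which cells were present. The keratocyte genes KERA, LUM, and PTGDS ran the other way, with sums of 3052 (limbus), 8393 (cornea), and 1459 (conjunctiva). Most of the keratocyte sum was PTGDS, at 2887 in limbus, 7945 in cornea, and 1394 in conjunctiva. The part of these cell types in the values of the Frizzled and SFRP genes was not tested. The 3′ to 5′ ratio of the GAPDH control, which rises as amplified RNA gets shorter, was 3.12 in limbus, 4.58 in cornea, and 3.83 in conjunctiva, while that of ACTB was 11.8 in limbus, 11.2 in cornea, and 10.3 in conjunctiva. The part of RNA length in these differences was not tested.

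**Figure D4:**
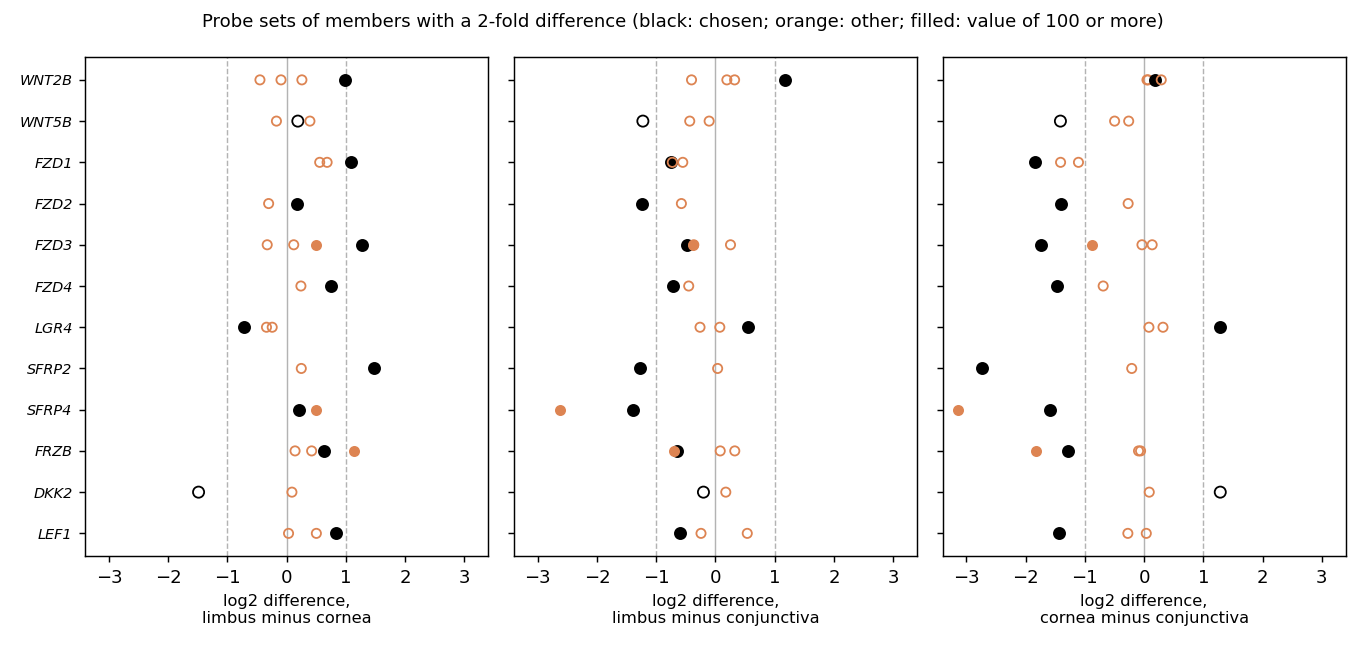
Log2 differences between pairs of tissues for every probe set of the 12 members with a 2-fold difference and more than 1 probe set (black, chosen; orange, other; filled, value of 100 or more in at least 1 tissue; dashed lines, 2-fold). In the panel of cornea minus conjunctiva, the filled orange points of FZD3, SFRP4, and FRZB lie on the same side as the chosen probe set, at -0.87, -3.13, and -1.83.

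Within the array values, a gene could be checked against its further probe sets. Of the 41 members, 29 had more than 1 probe set. Among their 58 other probe sets, 30 (51.7%) had the same highest tissue as the chosen one, compared with 42.2% over all genes. Of the 15 among them that reached 100, 11 (73.3%) had the same highest tissue, compared with 51.7% over all genes. The exceptions were both other LRP6 probe sets and 1 each of DKK3 and AXIN2.

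Further genes of the pathway, 81 of 88 listed symbols measured, were most often lowest in the cornea. On the deposited scale this held for 41 of them, compared with 33.2% of all genes. Under the hybridization control scaling it held for 66, but the lowest tissue of all genes was not counted there. At least 2-fold lower in the cornea than in the conjunctiva were 15 of 81, and 4 were higher, compared with 5.68% and 5.31% of all genes. Under the hybridization control scaling these counts were 18 and 0, compared with 10.4% and 2.92% of all genes. In the limbus, 11 were higher and 2 lower than in the cornea, compared with 4.06% and 2.51% of all genes. Under that scaling they were 21 and 0, compared with 16.7% and 0.582%. Between the limbus and the conjunctiva, 2 were higher and 3 lower in the limbus, compared with 2.62% and 2.31%. These became 4 and 1 under that scaling, compared with 5.87% and 0.996%. CTNNB1, GSK3B, and WLS stayed within 1.5-fold. CTNNB1, which encodes beta-catenin, was at 1851 in limbus, 1508 in cornea, and 2251 in conjunctiva, and GSK3B, the kinase that marks it for breakdown, at 1566 in limbus, 1695 in cornea, and 1423 in conjunctiva. WLS, which carries ligands to the cell surface, was at 554 (limbus), 430 (cornea), and 496 (conjunctiva). The R-spondin genes were at 73.6 or lower.

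Of 16 known target genes measured, 5 passed 2-fold on the limbus side of the pair limbus and cornea (4.06% of all genes), and 5 were at least 2-fold lower in the cornea than in the conjunctiva (5.68%). TNFRSF19, a receptor of the tumor necrosis factor family and a beta-catenin target that the study lists among its limbus transcripts, was at 234 in limbus, 21.8 in cornea, and 49.7 in conjunctiva. SP5, a repressor induced by the pathway, was at 138 in limbus, 54.8 in cornea, and 66.2 in conjunctiva, so that both counted for the limbus by the 2-fold rule. SOX9, which marks progenitors of many epithelia, was at 351 (limbus), 23.9 (cornea), and 566 (conjunctiva), and CCND2, a cell cycle cyclin, at 394 in limbus, 76.2 in cornea, and 289 in conjunctiva. Both were thus lowest in the cornea by more than 2-fold. ID2, an inhibitor of differentiation factors, was at 114 (limbus), 50.2 (cornea), and 211 (conjunctiva), while MMP7, a metalloproteinase, counted for the conjunctiva at 47.6 in limbus, 47.2 in cornea, and 115 in conjunctiva. MYC and CCND1, the targets named most often, stayed under 2-fold between any pair of tissues. MYC was at 242 (limbus), 172 (cornea), and 181 (conjunctiva) and CCND1 at 952 in limbus, 964 in cornea, and 497 in conjunctiva.

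Inhibitors and polarity genes were split between the tissues. APCDD1, a membrane inhibitor of the pathway, was at 420 in limbus, 166 in cornea, and 476 in conjunctiva, and the corepressor TLE4 was at 551 (limbus), 248 (cornea), and 708 (conjunctiva). CXXC4 and DACT3, which act on Dishevelled, were at 211 in limbus, 81.5 in cornea, and 168 in conjunctiva and at 130 (limbus), 56.5 (cornea), and 126 (conjunctiva). All 4 were lowest in the cornea by at least 2-fold. The cornea was highest for CTNNBIP1, which keeps beta-catenin from TCF proteins, at 401 in limbus, 1012 in cornea, and 426 in conjunctiva, and for DAAM1, a formin of the polarity branch, at 567 (limbus), 1468 (cornea), and 698 (conjunctiva). The conjunctiva was highest for DVL3, a Dishevelled protein, at 109 in limbus, 105 in cornea, and 287 in conjunctiva, and for the proteoglycan GPC3 at 103 (limbus), 63.4 (cornea), and 230 (conjunctiva).

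**Figure D5:**
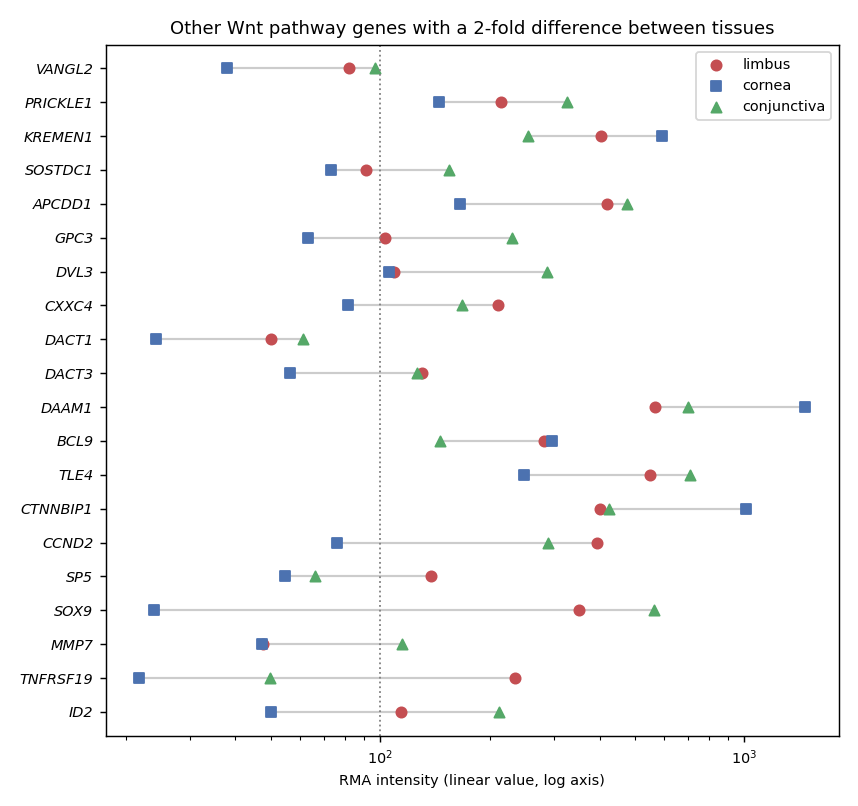
Linear RMA intensity (log axis) with circles for limbus, squares for cornea, and triangles for conjunctiva, 1 array each, of the 20 other pathway genes with a 2-fold difference between any pair of tissues. The cornea is lowest for all but 4 of them, with SOX9 at 23.9 and TNFRSF19 at 21.8, and highest for KREMEN1, DAAM1, BCL9, and CTNNBIP1. When the arrays are scaled by hybridization controls, KREMEN1 and BCL9 turn highest in the limbus. The cornea is then highest for 3 of all 81 other pathway genes, in place of 25.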

How the data were processed

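Total RNA was amplified in 2 rounds and hybridized to human Affymetrix whole-genome arrays, 1 per tissue. The authors normalized each array by RMA (named in the submitters' processing notes, version not given in the sources used here), adding the same reference arrays to each. What they deposited are linear intensities of 54675 probe sets, which were used unchanged. Differences of scale between arrays can therefore remain. The number of arrays limits the precision, and p-values were not computed. The table held 0 columns of other samples.

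Probe sets were named from the platform annotation, in which 41097 had 1 symbol, 1801 several, and 11777 none. All 41 measured members have a gene of the same symbol in the vervet annotation. The members, their roles, and all gene lists were chosen with earlier results of these data known. All members are described, with all values for those that reached 100 or counted for a tissue. Of the further pathway genes, those with 100 or more that differed at least 2-fold from both other tissues are named, and the other pathway genes and the markers named in the text were chosen after their values were seen. Ratios and log2 differences were computed with Python 3.11.15, numpy 2.4.6, and pandas 2.3.3, and plots were drawn with matplotlib 3.10.9. The selection code was run on simulated data in which genes were raised past the threshold with small noise. That run checks the code and tells nothing of the error of these arrays. Alternatives were a pseudocount of 32, a minimum of 100, quantile normalization, division by the 18 hybridization controls, the median over probe sets, and thresholds of 1.5 and 3.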

Additional observations from a re-analysis of the deposited data

How the results depend on the processing

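WIF1 counted for the limbus with the pseudocount, under both other scalings, and at 3-fold. The hybridization control scaling could only raise its limbus excess, and its single probe set leaves the median over probe sets without effect. Quantile normalization changed none of the 2-fold counts of members by more than 1.5 times, but of the other pathway genes 2 in place of 4 were higher in the cornea than in the conjunctiva. With a pseudocount of 32, the cornea kept 1 member (WNT7A) and the conjunctiva 1 (FZD2); 2 members were higher and 1 lower in the limbus than in the cornea; there was 1 higher and 1 lower than in the conjunctiva, and 2 were higher in the cornea than in the conjunctiva. Requiring a value of 100 left 1 of 29 members for the cornea, compared with 3.05% of all such genes. It left 1 lower in limbus than in cornea (3.84%) and 2 higher in the cornea than in the conjunctiva (8.52%). Scaling by hybridization controls gave 2 members for the limbus (WNT2B and WIF1), 1 for the cornea, and 1 for the conjunctiva. The shares of all genes were 2.23%, 0.546%, and 0.946%. In the limbus, 16 were higher and 1 lower than in the cornea (16.7% and 0.582% of all genes). There was 1 lower than in the conjunctiva (0.996%), and 1 higher in the cornea than in the conjunctiva (2.92%). The scaling multiplies each array by a constant, and the median for limbus minus cornea became 0.68 over the members, 0.47 for ligands, 0.66 for receptors, 1.21 for antagonists, and 1.30 for effectors. By the median over probe sets, 1 member counted for the cornea and 1 for the conjunctiva (1.17% and 0.991% of all genes). In the limbus, 1 was lower than in the cornea (1.57%), and 1 was higher and 1 lower than in the conjunctiva (1.67% and 1.40%). The effector median for limbus minus cornea was -0.072, and WNT2B turned to -0.039 for limbus minus conjunctiva. At 1.5-fold, 2, 4, and 9 members counted for the limbus, the cornea, and the conjunctiva, compared with 2.19%, 6.29%, and 5.31% of all genes. In the limbus, 14 were higher and 5 lower than in the cornea (9.82% and 10.4% of all genes). There were 9 lower than in the conjunctiva (9.11%), and 7 higher in the cornea than in the conjunctiva (13.2%). The share of members was 9.76% for the cornea and 12.2% for lower in limbus than in cornea. It was 17.1% for higher in the cornea than in the conjunctiva. At 3-fold, 0 counted for the cornea or the conjunctiva (0.491% and 0.501% of all genes). In the limbus, 1 was higher and 1 lower than in the cornea (1.74% and 0.602%). There was 1 higher and 0 lower than in the conjunctiva (0.693% and 0.566%). In the cornea, 0 were higher and 4 lower than in the conjunctiva (1.82% and 2.86%). The cause of changes with the choice of probe set was not tested.

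The 12 members that were lower in the cornea than in the conjunctiva numbered 8 with a pseudocount of 32, compared with 3.84% of all genes. A pseudocount can only remove such calls, so these 8 were bound to be among the 12. By the median over probe sets there were 8, compared with 3.93% of all genes, and 7 of them were among the 12. The 12 members that stayed under 100 in every tissue have ratios of low intensities, and with 1 array per tissue no error can be given for any ratio.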
